A study of Sus scrofa with 56 samples.

Results

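Peripheral blood mononuclear cells of 28 sows on day 98 of gestation, shortly before farrowing, were compared between 13 sows of high parity and 15 of low parity. All libraries of that day were taken, 28 of the 56 in the series, and no measured value entered the choice. High parity (HP) meant a 4th or later gestation and low parity (LP) the 2nd or 3rd. Each library came from a different sow (Sus scrofa), and 26 of the 28 sows were sampled again on day 11 of lactation, 2 of them with 2 libraries there by the labels. The experiment was run in 2 replicates, R1 with 7 HP and 7 LP libraries and R2 with 6 HP and 8 LP. Housing was conventional for 5 HP and 9 LP sows and enriched for 8 HP and 6 LP sows. The labels also give a dominance status, and it was unevenly spread. The HP sows were 8 dominant, 4 intermediate and 1 subordinate, and the LP sows 1 dominant, 7 intermediate and 7 subordinate, so that parity and rank could largely not be told apart. All were pregnant and none was a first-litter sow. The labels give no age, and sows of more gestations are as a rule older, so parity and age could not be told apart either.

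Mononuclear cells of blood are lymphocytes (T cells, B cells and natural killer cells), monocytes and dendritic cells. Pigs have many circulating T cells that carry the gamma delta form of the T cell receptor in place of the alpha beta form, and these cells are most frequent in young animals. In mice SOX13 and BLK take part in the development of gamma delta T cells, and GATA3 is a transcription factor that T cells of most kinds need. In a bulk sample of this kind, fewer cells of a type and less RNA of a gene per cell cannot be told apart.

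The libraries held 18764208 to 24894794 estimated counts (median 22371696.5), in 14276 to 14777 genes. Markers of the labelled cells were present in all 28. The T cell receptor subunit CD3E was at 152 to 403 TPM (transcript abundance scaled for gene length, as deposited), the B cell gene CD79A at 54.8 to 161 TPM and the monocyte receptor CSF1R at 60.0 to 261 TPM. The neutrophil granule genes MPO and ELANE had a median of 0. CSF3R, which is on the same granulocyte list, was at 43.0 to 171 TPM (median 105), so these markers do not show that granulocytes were absent. Genes of red cells took 1.67 ± 2.69% of the counts in HP (SD, n = 13) and 1.79 ± 3.28% in LP (SD, n = 15; permutation test, p = 0.923). Genes of platelets took 0.325 ± 0.0826% and 0.298 ± 0.117% (permutation test, p = 0.486). The 4 libraries with the most HBB, a haemoglobin gene, were 2 of each group (HP 4 and 5, LP 6 and 15), and all 4 are of R1. In a principal component analysis of 500 genes, the first component (20.5% of the variance) followed the replicate, which explained 68.0% of it, while parity explained 0.00709%. The component on which parity explained most, 48.9%, was the fifth, with 4.46% of the variance, and rank explained 47.3% of that same component. One HP library (number 13, an intermediate sow of enriched housing in R2) was close to the LP libraries in many of the genes described here, and its values are given beside the results.

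High parity sows had lower levels of SOX13, BLK, GATA3 and ZBTB16, 4 of the 10 tested genes on a list of gamma delta T cell genes, and of the homeobox factor CUX2. They had higher levels of the macrophage mannose receptor MRC1, of the dendritic cell factor BATF3 and of the co-receptors CD4 and CD8A. In the edgeR quasi-likelihood fit with housing and replicate as covariates, 357 of 12273 genes passed an adjusted p of 0.05 (2.91%), of which 147 were higher in HP (1.2% of the genes tested) and 210 lower (1.71%). Of the 357 genes 299 have a symbol. The differences were small: their median size was 0.37 on the log2 scale, and 25 exceeded a 2-fold difference, 2 higher in HP (MRC1 and SV2C) and 23 lower. The median size over all 12273 genes was 0.0976, and their median log2 fold change was −0.000397. Over all 28 libraries the HP and LP values overlapped in each gene (0 of 12273 without overlap, 0.0%), so these are shifts and not separate groups. Differences are log2 fold changes, HP minus LP, unless a unit is given, and HP or LP with a number names a library. Where 3 levels are given for a group, they are its lowest, median and highest library. A p for a fit without 1 library is the highest adjusted p of the 28 fits that each left out 1, and is printed where the gene did not pass in all of them.

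**Figure D1:**
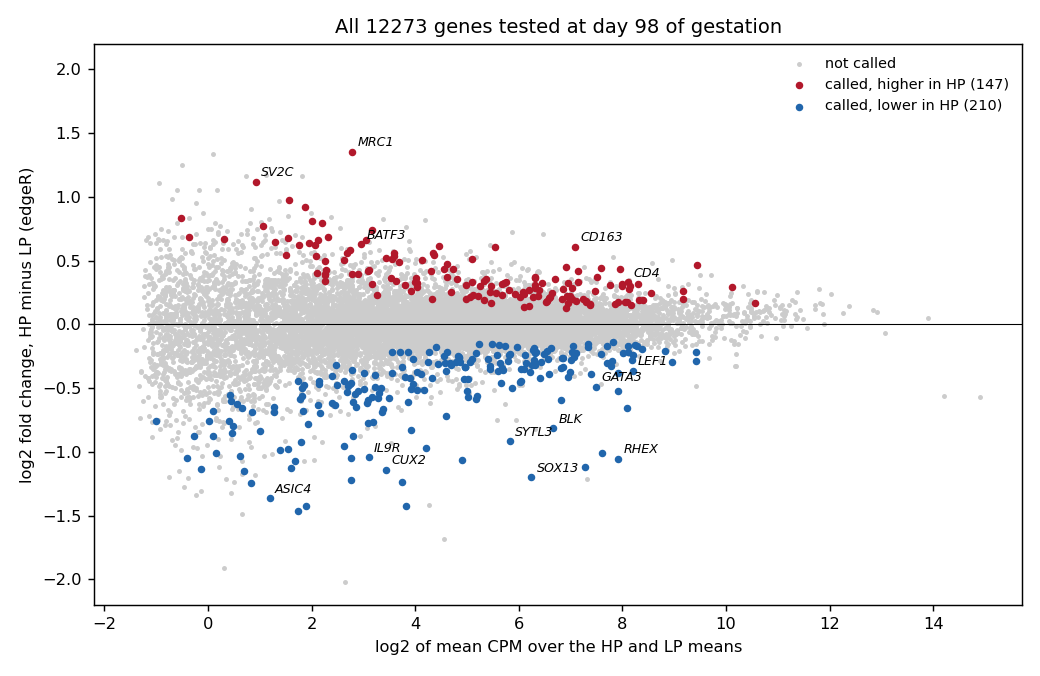
Each point is a gene, with its mean level in log2 CPM (counts relative to the library's TMM-scaled total) on the x axis and its log2 fold change, HP minus LP, on the y axis. The 147 genes higher in HP and the 210 lower are coloured, most of them lie within 1 log2 unit of 0, and 1 gene lies outside the plotted range.

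The list of gamma delta T cell genes held 15 symbols, of which 11 have an ID and 10 passed the filter on low counts. Of these 10, 4 passed as lower in HP (SOX13, BLK, GATA3 and ZBTB16) and 0 as higher, with a median log2 fold change of −0.40. Of the 10, 8 had a log2 fold change below 0 and 2 above 0, and 9 had an unadjusted p under 0.05. Over all genes tested, 2442 of 12273 had such a p. The list and its members were chosen with earlier results of these data known, so these counts are not independent evidence about gamma delta T cells. The list's summed level was 274 to 531 CPM (counts relative to the library's TMM-scaled total) over the HP libraries and 424 to 719 CPM over the LP libraries. The receptor genes themselves cannot be read here: TRDC, TRDV3 and also CD163L1 (the WC1-type scavenger receptor of these cells) and SOX4 matched no ID by symbol.

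SOX13 (ENSSSCG00000015277, chromosome 9, 64745762 to 64780942) codes for an SRY-related transcription factor of the gamma delta lineage in mice. It was at 12.2, 44.8 and 102 CPM in HP and 57.4, 114 and 148 CPM in LP (log2 fold change −1.20, SE 0.21, adjusted p = 0.00234). In 10 of 13 HP sows it was below the lowest LP sow, and the groups overlapped through HP libraries 5, 10 and 13 (63.7, 57.5 and 102 CPM). The 2 lowest values of all, 12.2 and 17.6 CPM, belonged to 2 dominant HP sows of R1.

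BLK, a Src-family kinase of B cells that gamma delta T cells of mice also use, lies on chromosome 14 at 14688489 to 14745946 (ENSSSCG00000027568). It was at 37.6, 71.5 and 103 CPM in HP and 86.1, 133 and 174 CPM in LP (log2 fold change −0.81, SE 0.14, adjusted p = 0.00234). Of the HP sows 8 of 13 were below all LP sows. BLK is also a B cell gene. Of the 12 tested genes of the B cell list 0 passed in edgeR or DESeq2, with 3 at an unadjusted p under 0.05 (median −0.20). Of these 12, 10 were below 0 and 2 above, and the list median was −0.59 in R1 and 0.09 in R2. Their summed level was 647, 1013 and 1864 CPM in HP and 954, 1256 and 1831 CPM in LP. Whether B cells contributed to the difference in BLK was not tested. GATA3 lies on chromosome 10 at 63367684 to 63397977 (ENSSSCG00000011125). It was at 116, 147 and 220.0 CPM in HP and 164, 214 and 272 CPM in LP (log2 fold change −0.49, SE 0.08, adjusted p = 0.00218), with 10 of 13 HP sows below all LP sows. ZBTB16, which codes for PLZF, a factor of innate-like T cells, was lower too, with medians of 7.72 against 9.60 CPM (log2 fold change −0.49, SE 0.12, adjusted p = 0.0266, and up to 0.0509 without HP 11). It is at the same time a gene that glucocorticoids induce, and was the single member of 10 tested on that list to pass.

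The other 6 tested members did not pass, and did not all lean the same way. MAF was at −0.21 (adjusted p = 0.0787), CCR9, a gut-homing chemokine receptor, at −0.39 (adjusted p = 0.0835), ID3 at −0.40 (adjusted p = 0.156) and ETV5 at −0.12 (adjusted p = 0.856). IL23R, a receptor subunit for interleukin-23, was at 0.37 (adjusted p = 0.224). SOX5, a relative of SOX13, was on no list and was picked out after its values were seen. It was at 1.35, 2.70 and 5.41 CPM against 2.10, 4.91 and 7.15 CPM (log2 fold change −0.78, SE 0.21, adjusted p = 0.0378, and up to 0.0823 without LP 15).

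**Figure D2:**
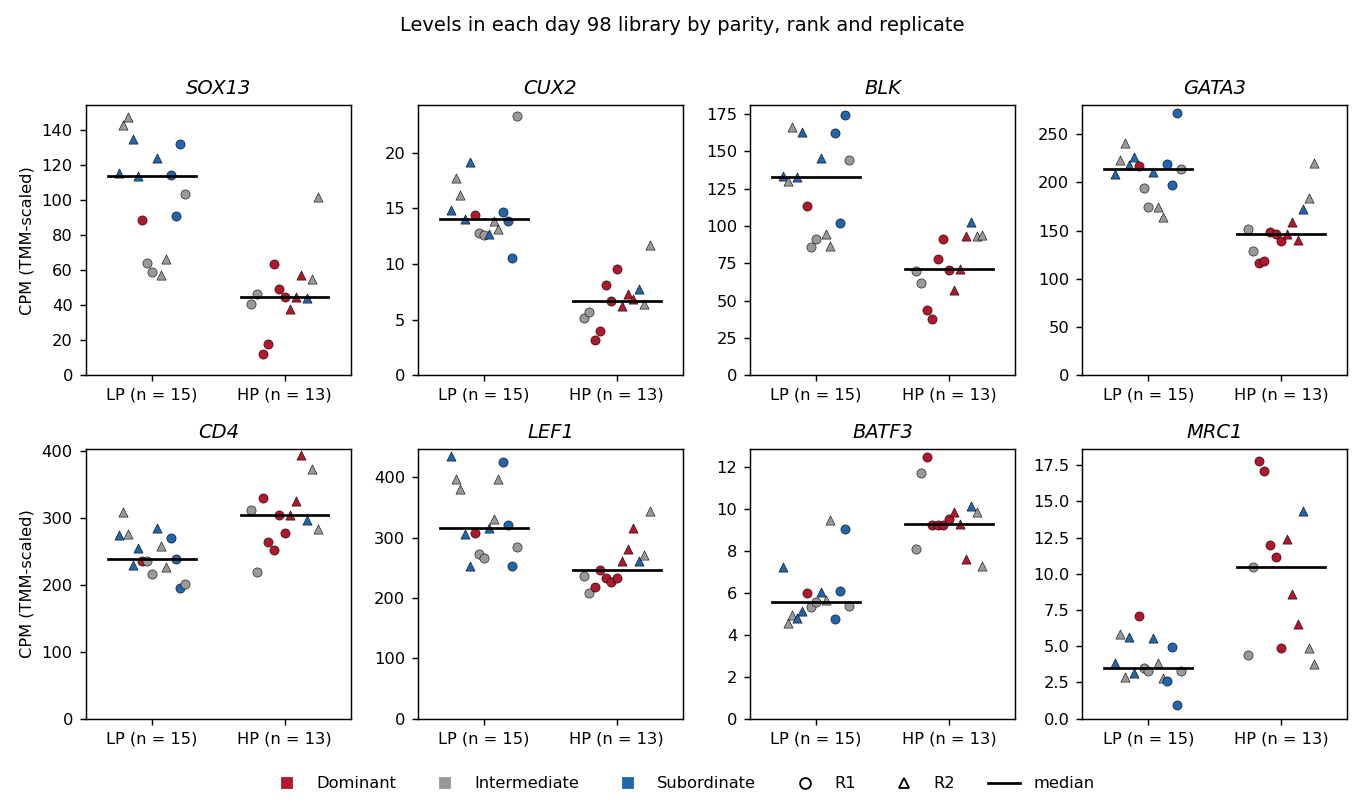
Level in CPM (y axis) of 8 genes in each of the 28 libraries, LP on the left and HP on the right of each panel, with colour for rank, shape for replicate and a bar at the group median. SOX13, CUX2, BLK, GATA3 and LEF1 are lower in HP and CD4, BATF3 and MRC1 higher, and the groups overlap in every panel.

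The gene with the smallest p was CUX2 (ENSSSCG00000009831, chromosome 14, 32311781 to 32587194), a homeobox transcription factor. It was at 3.21, 6.62 and 11.7 CPM in HP and 10.6, 14.1 and 23.3 CPM in LP (log2 fold change −1.14, SE 0.15, adjusted p = 0.000197), and 12 of 13 HP sows were below every LP sow. The 1 that was not was HP library 13 at 11.7 CPM, above the single lowest LP library at 10.6 CPM. The 2 libraries belong to different runs. CUX2 was the single gene of 12273 (0.00815%) in which HP and LP did not overlap within R1 (3.21 to 9.56 CPM and 10.6 to 23.3 CPM) or within R2 (6.24 to 11.7 CPM and 12.7 to 19.2 CPM). Counted by run, 103 genes were without overlap in R1 (0.839%) and 124 in R2 (1.01%). SYTL3, a synaptotagmin-like protein of vesicle traffic, lies on chromosome 1 at 8452822 to 8546637 (ENSSSCG00000004057). It was at 24.5, 37.9 and 64.9 CPM in HP against 44.6, 75.5 and 104 CPM in LP (log2 fold change −0.92, SE 0.14, adjusted p = 0.000791), with 9 of 13 HP sows below all LP sows.

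Among the receptors with the largest falls, IL9R, the interleukin-9 receptor, lies on chromosome 3 at 41581253 to 41590485 (ENSSSCG00000007973). It was at 1.28, 5.92 and 13.8 CPM in HP and 4.84, 11.0 and 16.0 CPM in LP (log2 fold change −1.04, SE 0.21, adjusted p = 0.0104). ACVR2A, a receptor for activins, lies on chromosome 15 at 4177333 to 4259056 (ENSSSCG00000015669). It was at 1.38, 3.87 and 8.96 CPM and 4.77, 7.90 and 11.07 CPM (log2 fold change −0.95, SE 0.14, adjusted p = 0.000791). HP library 13 was within the LP range for both, at 13.8 CPM for IL9R and 8.96 CPM for ACVR2A. RHEX (ENSSSCG00000015638), known in humans as a regulator of erythroid cell expansion, was at 50.0, 155 and 362 CPM in HP and 163, 327 and 537 CPM in LP (log2 fold change −1.05, SE 0.20, adjusted p = 0.00531), and library 13 was the highest of the HP sows. Of the 9 tested genes of the erythroid list 0 passed in edgeR or DESeq2 and 0 had an unadjusted p under 0.05 (median −0.56).

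The scaffold of JNK signalling SH3RF1 had a median of 2.06 against 4.35 CPM (log2 fold change −0.92, SE 0.16, adjusted p = 0.00234), HP given first. SIDT1, of a family that transports double-stranded RNA, had one of 4.54 against 8.81 CPM (log2 fold change −0.88, SE 0.18, adjusted p = 0.00984). For both, 10 of 13 HP sows were below all LP sows. The rest of the 14 largest falls were genes better known from nervous and other tissues and mostly at low levels. ASIC4, of the acid-sensing ion channels, fell by 1.36 on the log2 scale (SE 0.29, adjusted p = 0.0137) from a median of 3.05 CPM in LP to 1.41 in HP. The sortilin-family receptor SORCS2 differed by −1.13 (SE 0.24), PAMR1 by −1.07 (SE 0.28) and the vesicular amino acid transporter SLC6A17 by −1.05 (SE 0.25). AOC1, the diamine oxidase that degrades histamine, differed by −0.99 (SE 0.28) and ABLIM3, an actin-binding protein, by −0.97 (SE 0.25). With 1 library left out, AOC1 passed in 8 of 28 fits (adjusted p up to 0.0824 without HP 8), ABLIM3 in 18 (up to 0.0707 without LP 3) and PAMR1 in 20 (up to 0.0688 without LP 1). The largest falls among genes without a symbol were those of ENSSSCG00000009429 (−1.47) and ENSSSCG00000031278 (−1.43).

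Among genes of myeloid cells, MRC1 (ENSSSCG00000011038, chromosome 10, 44107926 to 44226734), the mannose receptor of macrophages and some dendritic cells, showed the largest rise by the naming rule. It was at 3.77, 10.47 and 17.8 CPM in HP and 0.909, 3.46 and 7.08 CPM in LP (log2 fold change 1.35, SE 0.26, adjusted p = 0.00707). Of the HP sows 8 of 13 were above every LP sow and the others overlapped with LP, library 13 being the lowest HP sow at 3.77 CPM. CD163, the haemoglobin scavenger receptor of monocytes and macrophages, lies on chromosome 5 at 63300200 to 63334497 (ENSSSCG00000033146). It was at 72.0, 150.3 and 263 CPM in HP and 60.6, 113 and 179 CPM in LP (log2 fold change 0.61, SE 0.16, adjusted p = 0.0367, and up to 0.0729 without LP 15). Its difference was 0.97, SE 0.19 in R1 and 0.23, SE 0.15 in R2, and within R2 it did not pass. These were the 2 of 9 tested scavenger receptor genes that passed (median 0.19). CD163 was also the single one of 15 monocyte genes (median 0.22), whose summed level was 1510.0 to 3307 CPM in HP and 1345 to 2702 CPM in LP. MSR1, a further scavenger receptor, was at 1.17 with an adjusted p of 0.0896 and did not pass.

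BATF3, the transcription factor that conventional type 1 dendritic cells need, lies on chromosome 9 at 130699092 to 130711719 (ENSSSCG00000026587). It was at 7.26, 9.27 and 12.5 CPM in HP and 4.57, 5.57 and 9.49 CPM in LP (log2 fold change 0.63, SE 0.11, adjusted p = 0.00234). Of the HP sows 6 of 13 were above all LP sows. FLT3, the receptor for the growth factor of dendritic cell precursors, had medians of 25.9 against 20.8 CPM (log2 fold change 0.47, SE 0.12, adjusted p = 0.0351, and up to 0.0798 without HP 3). These were the 2 of 10 dendritic cell genes that passed, and none passed as lower. Of the 10, 8 were above 0 and 2 below (median 0.33). RUNX2 was the single one of 7 genes of plasmacytoid dendritic cells to pass, at 0.30 (SE 0.06, adjusted p = 0.0113). Of the 6 tested MHC class II genes under their swine symbols 0 passed in edgeR or DESeq2, with 3 at an unadjusted p under 0.05 (median 0.12). A gene listed as HLA-DRA was outside that list and was picked out after its values were seen. It was at 928, 1234 and 1447 CPM in HP against 839, 993 and 1172 CPM in LP (log2 fold change 0.29, SE 0.06, adjusted p = 0.0150). In it 10 of 13 HP sows were above all LP sows. How reads of near-identical class II genes were shared out is not known, so that value is uncertain.

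The other large rises were of varied function. ADGRV1, an adhesion G protein-coupled receptor, lies on chromosome 2 at 97703648 to 98277847 (ENSSSCG00000035025). It was at 4.07, 5.77 and 7.73 CPM in HP and 1.81, 3.46 and 5.41 CPM in LP (log2 fold change 0.79, SE 0.16, adjusted p = 0.00984). IL1RL2, the receptor for interleukin-36, lies on chromosome 3 at 51978857 to 52011607 (ENSSSCG00000023550). It was at 4.48, 10.6 and 14.3 CPM and 2.87, 6.49 and 9.08 CPM (log2 fold change 0.67, SE 0.16, adjusted p = 0.0266, and up to 0.0552 without HP 8). In each of these genes 8 of 13 HP sows were above all LP sows. PTGS1, the constitutive cyclooxygenase, was at 1.93, 3.41 and 15.7 CPM in HP and 1.22, 2.41 and 5.88 CPM in LP (log2 fold change 0.92, SE 0.23, adjusted p = 0.0307, and up to 0.0979 without HP 11). Its highest HP value, far above the HP median, was that of library 11. Without that library the log2 fold change was 0.67. F2RL1, a protease-activated receptor, differed by 0.81 (SE 0.16), the tachykinin precursor TAC4 by 0.77 (SE 0.21), the splicing factor RBM20 by 0.74 (SE 0.15) and the membrane adaptor ANK2 by 0.68 (SE 0.16). SPRED1, an inhibitor of Ras signalling to ERK, differed by 0.68 (SE 0.19), the kinesin KIF5C by 0.64 (SE 0.18) and the planar polarity gene PRICKLE2 by 0.62 (SE 0.17). With 1 library left out, TAC4, SPRED1, KIF5C and PRICKLE2 passed in 14, 6, 10 and 12 of 28 fits. Their adjusted p went up to 0.0844 without HP 3, 0.0967 without HP 8, 0.107 without HP 7 and 0.0904 without HP 3. Among genes without a symbol and with the same minimum level (a mean of at least 1 on the log2 CPM scale), ENSSSCG00000016810 (0.97) and ENSSSCG00000036918 (0.66) rose most.

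SV2C, a synaptic vesicle protein, had a mean level under the minimum of the naming rule and was picked out after its values were seen. It was at 1.28, 2.27 and 3.99 CPM in HP and 0.576, 1.34 and 2.05 CPM in LP (log2 fold change 1.12, SE 0.16, adjusted p = 0.000386). It was above all LP sows in 11 of 13 HP sows, more than for any of the rises named by the rule. P2RX5, an ATP-gated ion channel of lymphocytes chosen in the same way, was at 180.4, 201 and 236 CPM in HP and 222, 277 and 304 CPM in LP (log2 fold change −0.38, SE 0.05, adjusted p = 0.000386).

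The co-receptors CD4 and CD8A were higher in HP and the receptor chain CD247 lower. Of 13 T cell genes tested, 2 passed as higher in HP and 1 as lower, and 5 had an unadjusted p under 0.05, with a median of 0.14. The receptor subunits CD3D and CD3E stood at −0.02 (SE 0.07) and 0.01 (SE 0.07). CD4, the co-receptor of helper T cells and in pigs also of plasmacytoid dendritic cells, lies on chromosome 5 at 63892129 to 63918547 (ENSSSCG00000000687). It was at 219, 304 and 393 CPM in HP and 195, 239 and 308 CPM in LP (log2 fold change 0.33, SE 0.06, adjusted p = 0.00707). CD8A, the alpha chain of the co-receptor of cytotoxic cells, was at 219, 274 and 378 CPM and 167, 223 and 303 CPM (log2 fold change 0.30, SE 0.08, adjusted p = 0.0438, and up to 0.105 without HP 9). CD247, the zeta chain through which T cell receptors signal, was at 329.8, 441 and 584 CPM and 419.6, 548 and 715 CPM (log2 fold change −0.30, SE 0.08, adjusted p = 0.0476, and up to 0.0866 without HP 3). The groups overlapped in all 3 genes. CD8A passed in 11 and CD247 in 7 of the 28 fits that each left out 1 library.

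Of the 12 naive or central memory T cell genes, 3 passed as lower in HP and 1 as higher. In all, 10 were below 0 and 2 above, with a median of −0.14. Their summed level was 2833 to 3666 CPM in HP and 3122 to 4080.0 CPM in LP. LEF1, a factor of naive T cells and a target of Wnt signalling, was at 208, 247 and 345 CPM in HP and 253, 316 and 436 CPM in LP (log2 fold change −0.36, SE 0.08, adjusted p = 0.0121). BACH2, a repressor that holds T cells in a resting state, was at 40.2, 52.4 and 116 CPM and 48.8, 90.5 and 124 CPM (log2 fold change −0.37, SE 0.09, adjusted p = 0.0222). CCR7, the receptor for entry into lymph nodes, was at 165, 200.1 and 233 CPM and 192, 233 and 349 CPM (log2 fold change −0.29, SE 0.07, adjusted p = 0.0307, and up to 0.0592 without LP 1). The member that passed in the other direction was IL7R, the receptor of the survival factor interleukin-7, at 0.31 (SE 0.08, adjusted p = 0.0310). Of the 12 genes that mark regulatory or activated T cells, 2 passed as higher in HP and none as lower, with 8 above 0 and 4 below. TIGIT, an inhibitory receptor, had medians of 30.1 against 22.4 CPM (log2 fold change 0.43, SE 0.10, adjusted p = 0.0226, and up to 0.0502 without HP 9). TNFRSF4, the co-stimulatory receptor OX40, had medians of 9.53 against 7.71 CPM (log2 fold change 0.42, SE 0.12, adjusted p = 0.0483, and up to 0.0980 without HP 11). FOXP3, which defines regulatory T cells, was at −0.04 (SE 0.08) and did not pass.

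Of 17 genes of cytotoxic and natural killer cells, 15 were above 0 (median 0.18), but 1 passed. This was XCL1, the chemokine that draws XCR1-bearing dendritic cells, with medians of 4.80 against 3.20 CPM (log2 fold change 0.62, SE 0.16, adjusted p = 0.0367, and up to 0.0813 without HP 3). CXCR3, a chemokine receptor of effector T cells, was the single member to pass of 7 genes of memory and ageing T cells (medians 24.1 against 16.3 CPM; log2 fold change 0.42, SE 0.10, adjusted p = 0.0208). In 7 of 13 HP sows it was above all LP sows. CXCR3 and CCR7 were the 2 of 14 chemokine receptors that passed, in opposite directions. TRAV6, a variable segment of the T cell receptor alpha chain, differed by 0.64 (SE 0.17, adjusted p = 0.0426, and up to 0.0904 without HP 3), and since such segments are alike, its reads may have been split among them. Among 24 interleukin receptors 4 passed as higher in HP (IL1RL2, IL7R, IL13RA1 and IL1RL1, the receptor of interleukin-33) and 2 as lower (IL9R and IL21R), around a median of 0.05. IL1RL1 differed by 0.33 (SE 0.08, adjusted p = 0.0222), IL13RA1 by 0.45 (SE 0.12, adjusted p = 0.0367) and IL21R by −0.52 (SE 0.13, adjusted p = 0.0303).

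The remaining lists held few genes that passed or none, against 2.91% of all genes. At an unadjusted p under 0.05 were 2442 of all 12273 genes. The single member of 56 nuclear oxidative phosphorylation genes to pass was NDUFB10 (0.20, SE 0.05), although 56 of 56 were above 0, with a median of 0.12. Of the 56, 20 had an unadjusted p under 0.05. The list's median was 0.02 within R1 and 0.24 within R2. Of 13 inflammatory cytokine and NF-kB genes 1 passed, as lower, NFKB2 (−0.21, SE 0.06), and of 18 Notch and Wnt genes 1 passed, as lower, LEF1. In 14 lists none passed in edgeR, and each is given with its median and its number of genes at an unadjusted p under 0.05. These were 22 interferon-stimulated genes (−0.19; 1), 17 cell cycle genes (−0.23; 5), 45 ribosomal protein genes (0.10; 4), 12 mitochondrially encoded genes (0.20; 1), 15 immediate early genes (0.07; 1) and 9 plasma cell genes (−0.03; 4). Further such lists were 9 platelet genes (0.01; 0), 8 hormone receptors (0.10; 1), 11 heat shock genes (0.07; 1), 9 ER stress genes (0.10; 3), 3 granulocyte genes (0.21; 0), 6 stromal genes (0.16; 0), 14 genes of cell ageing and senescence (−0.04; 1) and 4 complement genes (0.35; 3). DESeq2 called 2 of the complement genes and 1 of the ageing genes, and 0 in the other 12 lists.

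**Figure D3:**
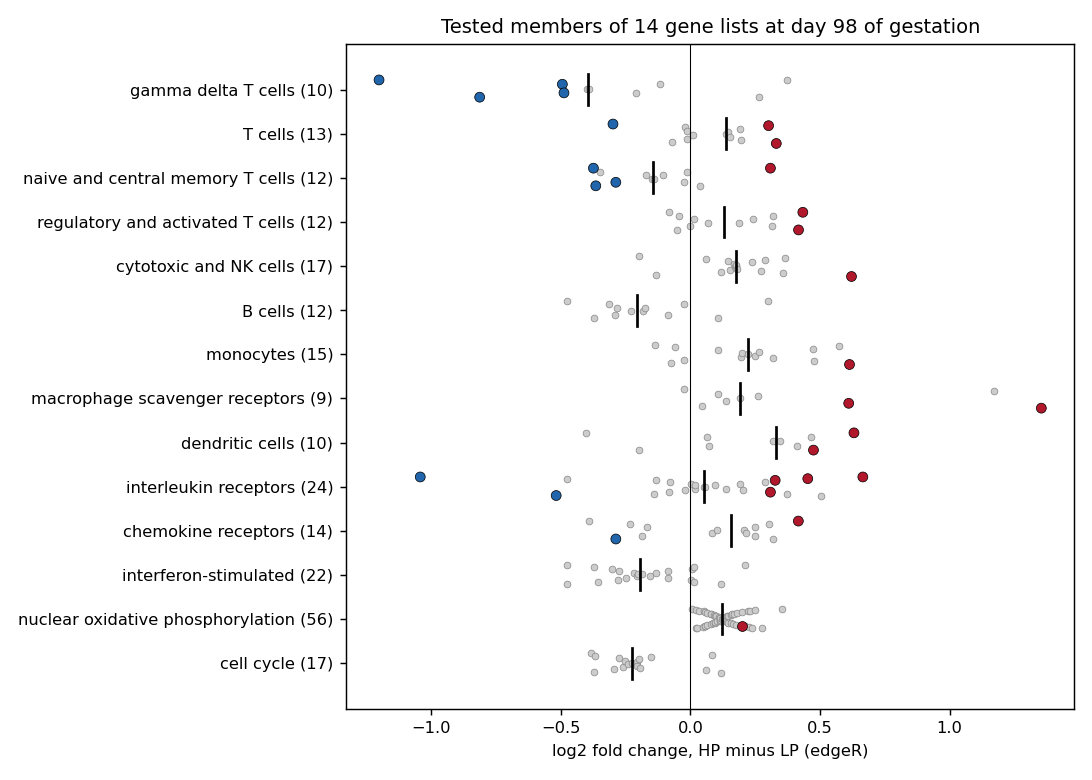
Log2 fold change, HP minus LP, of each tested member of 14 gene lists, with members that passed in colour and a bar at the list median. The gamma delta list has the lowest bar of the T cell lists, at −0.40, and most members of all lists lie within 0.5 of 0. The lists and their members were chosen with earlier results of these data known.

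Because most HP sows were dominant and 1 LP sow was, the genes were followed across rank. SOX13 was at 12.2 to 63.7 CPM in 8 dominant HP sows, 40.6 to 102 CPM in 4 intermediate HP sows, 57.4 to 148 CPM in 7 intermediate LP sows and 91.3 to 135 CPM in 7 subordinate LP sows. The single subordinate HP sow had 44.4 CPM, within the dominant HP range, and the single dominant LP sow 88.6 CPM, within the LP range. That dominant LP sow was also below all 7 subordinate LP sows and within the range of the intermediate HP sows. CUX2 was at 3.21 to 9.56 CPM in 8 dominant HP sows, 5.17 to 11.7 CPM in 4 intermediate HP sows, 12.6 to 23.3 CPM in 7 intermediate LP sows and 10.6 to 19.2 CPM in 7 subordinate LP sows. In CUX2 too, each of the 2 sows of unusual rank was within the range of her parity group, at 7.72 CPM for the subordinate HP sow and 14.4 CPM for the dominant LP sow.

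MRC1 was at 4.85 to 17.8 CPM in 8 dominant HP sows, 3.77 to 10.47 CPM in 4 intermediate HP sows, 2.78 to 5.88 CPM in 7 intermediate LP sows and 0.909 to 5.63 CPM in 7 subordinate LP sows. The subordinate HP sow was at 14.4 CPM and the dominant LP sow at 7.08 CPM. That dominant sow was the highest of all LP sows, and the intermediate HP sows were below most dominant ones. Among intermediate sows alone the HP minus LP difference of MRC1 was 0.66, SE 0.30, against 1.35, SE 0.26 in all sows. That of SOX13 was −0.58, SE 0.30, of BLK −0.51, SE 0.19, of GATA3 −0.21, SE 0.14, of CUX2 −1.12, SE 0.25 and of BATF3 0.66, SE 0.21.

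With rank added to the edgeR fit, 2 of 12273 genes passed (0.0163%), CUX2 (−1.11, SE 0.19, adjusted p = 0.0234) and SV2C (1.07, SE 0.18, adjusted p = 0.0234). All 357 genes kept their direction and 324 had an unadjusted p under 0.05, where 1276 of all genes did. Their fold changes had a median of 0.857 of those without rank, and the median SE went from 0.0853 to 0.107. Among the 11 intermediate sows, 4 HP and 7 LP, 0 of 12495 genes passed in edgeR (0.0%), with 872 at an unadjusted p under 0.05, and DESeq2 was not run on these sows. Of the 357 genes 352 kept their direction there, 118 with an unadjusted p under 0.05, at a median of 0.698 of the full difference. These sows are part of the 28, so the shared direction is not independent evidence.

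The runs of the experiment shared few of their called genes. Within R1 270 of 12189 genes passed (2.22%), 156 higher and 114 lower in HP, and within R2 817 of 12435 (6.57%), 325 higher and 492 lower. Of the 270 genes of R1, 171 had the same direction in R2, 42 of them with an unadjusted p under 0.05 and 5 with such a p in the opposite direction, while 24.5% of all genes had such a p in R2. Of 815 genes called in R2 and tested in R1, 374 had the same direction there, 49 with an unadjusted p under 0.05 and 22 with such a p in the opposite direction, at a base rate of 17.1%. Over the 12122 genes tested in both, the direction was the same for 49.9%.

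There were 10 genes that passed in R1 and in R2, and all 10 had the same direction in both. They were 10 of the 270 called in R1, where 6.57% of all genes passed in R2. They were 10 of the 815 called in R2, where 2.22% of all genes passed in R1. Neither share was above the rate over all genes, so the size of the overlap is no sign of agreement between the runs. Lower in HP in both runs were SOX13 (−1.31, SE 0.30 in R1 and −1.06, SE 0.27 in R2), CUX2 (−1.28, SE 0.23 and −0.99, SE 0.16), SYTL3 (−1.005, SE 0.18 and −0.82, SE 0.20) and BLK (−0.98, SE 0.20 and −0.62, SE 0.17). With them were P2RX5 (−0.36, SE 0.06 and −0.43, SE 0.08), the natriuretic peptide receptor NPR2 (−0.67, SE 0.16 and −0.57, SE 0.16), VPS37B of the ESCRT-I complex (−0.53, SE 0.09 and −0.39, SE 0.10) and 2 genes without a symbol. The 1 gene higher in both was SV2C (1.33, SE 0.21 and 0.84, SE 0.23). In SOX13 the R1 libraries held 12.2 to 63.7 CPM in HP and 58.8 to 132 CPM in LP, and the R2 libraries 38.1 to 102 CPM and 57.4 to 148 CPM. Of the 42 named genes 19 passed within R1 and 10 within R2. None reversed, but they had been chosen in the fit to both runs together.

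Of the myeloid genes, MRC1 passed within R2 and CD163 within R1. MRC1 differed by 1.55, SE 0.40 in R1 (adjusted p = 0.0575) and 1.18, SE 0.25 in R2 (adjusted p = 0.0181), and CD163 by 0.97, SE 0.19 (adjusted p = 0.0246) and 0.23, SE 0.15 (adjusted p = 0.376). In CD163 the HP libraries were at 132 to 263 CPM and the LP libraries at 60.6 to 140.0 CPM in R1, and at 72.0 to 159.5 CPM and 69.6 to 179 CPM in R2. The parity by replicate term of CD163 was −0.86, SE 0.26 (adjusted p = 0.0987) and did not pass. BATF3 differed by 0.71, SE 0.14 in R1 and 0.54, SE 0.16 in R2. Of the T cell genes, LEF1 was at −0.39, SE 0.10 and −0.36, SE 0.10, and CD4 at 0.33, SE 0.08 and 0.30, SE 0.10.

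Tested over all genes, the parity by replicate term passed for 24 of 12273 genes (0.196%) in edgeR, with 2327 at an unadjusted p under 0.05. In DESeq2 it passed for 421, with 2434 at such a p. Of the 357 genes, 54 had such a p in edgeR. Among the 24 that passed there, 1 (SMG9, of nonsense-mediated decay) was of the 357. The 3 with a symbol and the smallest p were ARHGAP15, CMSS1 and HSPE1, each slightly lower in HP in R1 and higher in R2. ARHGAP15, a Rac-inactivating protein of blood cells, was at 86.1 ± 6.09 CPM in HP and 95.7 ± 6.80 CPM in LP in R1 (SD, n = 7 each), and at 107 ± 8.82 and 82.5 ± 7.58 CPM in R2 (SD, n = 6 and 8).

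**Figure D4:**
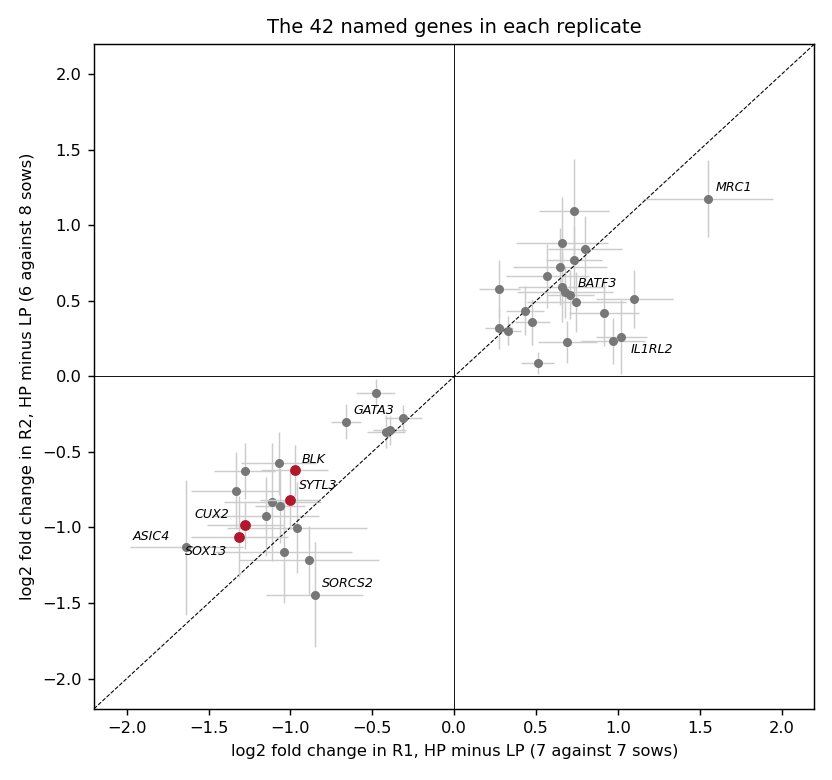
Log2 fold change, HP minus LP, within R1 (x axis) and within R2 (y axis) of the 42 genes named by the rule, with bars for 1 SE. SOX13, CUX2, SYTL3 and BLK, in red, passed in both runs, and the shared direction of the genes follows from their choice in the fit to both runs together.

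No gene passed a test of whether the parity difference depended on housing. Within conventional housing (5 HP and 9 LP) 5 of 12533 genes passed (0.0399%), P2RX5, DNASE1 and 2 genes without a symbol lower and BATF3 higher in HP. Within enriched housing (8 HP and 6 LP) it was 0 of 12342 (0.0%) by edgeR, with 1275 at an unadjusted p under 0.05. SOX13 differed by −1.35, SE 0.29 in conventional and −1.05, SE 0.27 in enriched housing, CUX2 by −1.11, SE 0.20 and −1.16, SE 0.21, GATA3 by −0.44, SE 0.08 and −0.52, SE 0.13, and MRC1 by 1.31, SE 0.30 and 1.44, SE 0.37. The parity by housing term passed for 0 of 12273 genes (0.0%) in edgeR, with 372 at an unadjusted p under 0.05, and for 0 in DESeq2, with 396. The 3 genes with a symbol and the smallest p were ENTPD5 (0.52, SE 0.14), OAZ3 (4.75, SE 1.30) and SHF (−1.44, SE 0.40; smallest adjusted p = 0.999).

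The same sows were measured once more in lactation, 12 HP and 14 LP of them in the same run. There 23 of 12311 genes passed (0.187%), 3 higher and 20 lower in HP. Of the 357 genes of day 98, 345 had the same direction in lactation, 201 with an unadjusted p under 0.05 and 19 passing, where 9.74% of all genes had such a p. These are the same animals and not a second sample of sows. SOX13 was at 9.23 to 42.6 CPM in HP and 34.6 to 104 CPM in LP in lactation (−1.26, SE 0.22). GATA3 differed by −0.51, SE 0.09, BLK by −0.86, SE 0.15, SYTL3 by −0.86, SE 0.15 and IL9R by −1.23, SE 0.25, all 4 passing. MRC1 differed by 0.71, SE 0.35 (adjusted p = 0.520), LEF1 by −0.26, SE 0.12 (adjusted p = 0.473) and CD4 by 0.28, SE 0.11 (adjusted p = 0.413), which did not pass. In MRC1 the sow of library HP 9 was at 44.8 CPM in lactation. The next highest HP sow was at 9.78 CPM, and the LP sows were at 1.97 to 8.30 CPM. The sow of HP 9 also held the lowest HP values in lactation of GATA3 (66.7 CPM), BLK (32.7 CPM), SYTL3 (13.9 CPM), LEF1 (135 CPM) and CD4 (194 CPM). No lactation fit was made without her.

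The parity by stage term passed for 0 of 12416 genes (0.0%) in edgeR, with 336 at an unadjusted p under 0.05, and for 0 in DESeq2, with 350. The 3 genes with a symbol and the smallest p were CNN3 (1.66, SE 0.43), TXNIP (−0.52, SE 0.14) and EGF (−1.07, SE 0.29). SOX13 had a term of 0.01, SE 0.11 and CUX2 of 0.21, SE 0.17.

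**Figure D5:**
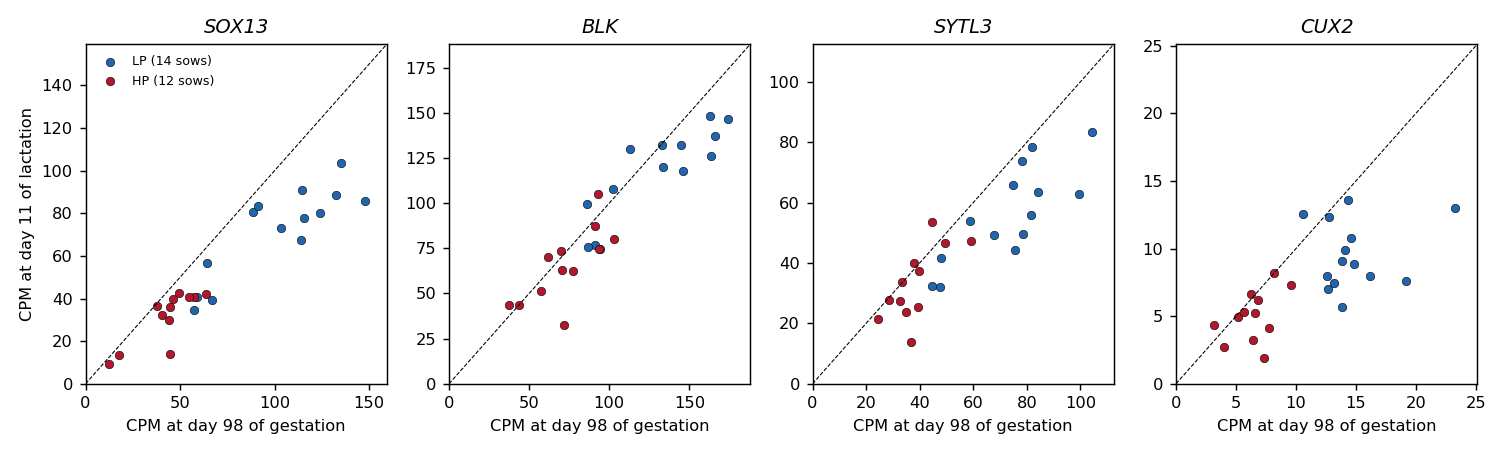
Level in CPM on day 98 of gestation (x axis) and on day 11 of lactation (y axis) of SOX13, BLK, SYTL3 and CUX2 in the 26 sows sampled in both, coloured by parity. HP sows lie towards the lower left of each panel and LP sows towards the upper right, with some overlap.

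Within the LP group SOX13, BLK and GATA3 also varied from sow to sow. The 4 lowest LP values of SOX13 (57.4, 58.8, 64.1 and 66.7 CPM) were those of 4 intermediate sows, 2 in each run. The same 4 sows held the 4 lowest LP values of BLK (86.1 to 94.5 CPM) and of GATA3 (164 to 194 CPM). For CUX2 they were at 12.6 to 13.9 CPM, within the range of the other LP sows. Correlations of SOX13 with 9 other genes across the sows of a group were taken on log2(CPM + 0.5), and 10 of 18 passed adjustment by r, 5 of them also by rho. In LP, SOX13 went with BLK (r = 0.878, n = 15, permutation p = 8.00e-05, adjusted p = 0.000720; rho = 0.736, permutation p = 0.00276, adjusted p = 0.0166). Without the 2 sows farthest from the median of SOX13 r was 0.852, and within R1 and R2 it was 0.940 and 0.863. For GATA3 in LP it was r = 0.847, n = 15, permutation p = 3.00e-05, adjusted p = 0.000540 (rho = 0.793, permutation p = 0.000830, adjusted p = 0.0149), with r = 0.769 without the 2 farthest sows and 0.887 and 0.934 within the runs. For CUX2 in HP it was r = 0.889, n = 13, permutation p = 0.000160, adjusted p = 0.000960 (rho = 0.698, permutation p = 0.0103, adjusted p = 0.0369), with r = 0.697 without the 2 farthest sows and 0.872 and 0.845 within the runs, while in LP r was 0.276 (adjusted p = 0.448). ZBTB16 did not go with SOX13 in LP (r = −0.150, n = 15, permutation p = 0.589, adjusted p = 0.663; rho = 0.0464, adjusted p = 0.924). Within R1 and R2 its r in LP was −0.263 and −0.564. In HP ZBTB16 passed by r but not by rho (r = 0.626, n = 13, permutation p = 0.02475, adjusted p = 0.04455). Over the larger side of the largest gap in SOX13, which leaves out the 2 lowest HP and the 4 lowest LP sows (n = 11 in each group), 0 of 18 passed, the smallest p being that of SYTL3 in HP (r = 0.775, n = 11, permutation p = 0.00360, adjusted p = 0.0648; rho = 0.664, permutation p = 0.0309, adjusted p = 0.389). ZBTB16 in LP was there at r = 0.504, n = 11, permutation p = 0.115, adjusted p = 0.206.

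Between a sow's level on day 98 and in lactation, 6 of 20 relations passed adjustment by both r and rho (10 genes in each group). These were SOX13 and BLK in both groups, SYTL3 in LP and SV2C in HP. For SOX13 in HP the relation was r = 0.850, n = 12, permutation p = 0.00160, adjusted p = 0.00640 (rho = 0.860, permutation p = 0.000590, adjusted p = 0.00530), and within R1 r was 0.989, R2 holding too few HP pairs. Without the 2 sows farthest from the median it was 0.371 (permutation p = 0.299, n = 10; rho = 0.758, permutation p = 0.0145, adjusted p = 0.0967), so that in HP the r rests on those 2 sows. In LP it was r = 0.886, n = 14, permutation p = 0.000140, adjusted p = 0.00140 (rho = 0.798, permutation p = 0.00106, adjusted p = 0.00530), 0.793 without the 2 farthest sows and 0.893 and 0.975 within the runs. For BLK in LP it was r = 0.865, n = 14, permutation p = 5.00e-05, adjusted p = 0.00100 (rho = 0.815, permutation p = 0.000800, adjusted p = 0.00530), and 0.857 without the 2 farthest sows, with 0.875 and 0.941 within the runs. Over the larger side of the largest gap in the level on day 98, 2 of 20 relations passed by r, SV2C in HP (r = 0.820, n = 11, permutation p = 0.00281, adjusted p = 0.0281; rho = 0.800, permutation p = 0.00426, adjusted p = 0.0426) and P2RX5 in LP (r = 0.785, n = 13, permutation p = 0.00240, adjusted p = 0.0281; rho = 0.753, permutation p = 0.00384, adjusted p = 0.0426). SOX13 in LP was there at r = 0.410, n = 10, permutation p = 0.242, adjusted p = 0.576 (rho = 0.479, permutation p = 0.166, adjusted p = 0.414).

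Around SOX13 on chromosome 9, within 500 kb on either side, 9 tested genes lie, SOX13 included, and 3 of them passed, all lower in HP. The window was chosen after the values were seen and was not tested. Besides SOX13 one was PIK3C2B, a class II phosphoinositide 3-kinase (65073728 to 65154861; means 199 against 282 CPM; log2 fold change −0.53, SE 0.08, adjusted p = 0.00125). The other was LRRN2, a leucine-rich repeat membrane protein (65279480 to 65352792; means 1.17 against 2.39 CPM; −1.24, SE 0.33, adjusted p = 0.0355). ETNK2, the tested gene next to SOX13, was at −0.69 (SE 0.24, adjusted p = 0.108) and did not pass, while PPP1R15B and MDM4, which flank PIK3C2B, were at 0.02 and −0.15.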

How the data were processed

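Whole transcriptomes were measured in mononuclear cells of peripheral blood, 1 library per sow on day 98. By the labels, 2 sows have 2 lactation libraries each, 1 in each run and under different ranks, and only the one of the run of day 98 was used. Per the labels' protocols, the libraries were stranded mRNA libraries. Per the file headers, the authors deposited for 24358 gene IDs an estimated count, not normalised, and a TPM value, both from their own quantification. The submitters' processing notes name Sscrofa11.1, R 4.1.2 and DESeq2. Not given in the sources used here are the quantifier, the annotation release and the treatment of reads shared by paralogs. Of the estimated counts 4.67% were not whole to within 1e-06, and all were rounded. TPM served only for the marker check. A table of gene names matched 14690 IDs (60.3%), and coordinates are gene spans of the RefSeq annotation of Sscrofa11.1, matched by symbol and counted from 1.

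Counts were fitted with edgeR 4.0.16 in R 4.3.3 (TMM, filterByExpr on parity, quasi-likelihood test, 2-sided, Benjamini-Hochberg adjustment over all genes tested, threshold 0.05), with housing, replicate and parity as terms. The replicate number marks a run of the experiment, per the series' design, and is a block shared by all libraries of that run rather than a pairing of sows. The stage term was tested in 52 libraries with a term per sow. A fold change is HP minus LP on the log2 scale, and its SE is its size over the root of the F statistic. On simulated data drawn from these libraries (12204 genes) the fit called 80% of genes changed by 0.5 log2 units and 98% of those changed by 1, with 10 false among 188 calls. The simulated counts held no difference by replicate, housing, rank or cell mixture, and genes of the lowest levels were not changed. These rates therefore need not hold for the real libraries. The chi-square per degree of freedom of 183 pairs of libraries of a group was 18.5 to 605 (genes with at least 20 counts), so none was counted as a repeat.

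Of a gene at 1 CPM a library holds 18.8 to 24.9 counts. Named were the 14 largest rises and 14 largest falls among passing genes with a symbol and with a mean of at least 1 on the log2 CPM scale, and up to 3 passing members of each of 33 lists with at least 2 passing, 42 genes in all. The members and the lists were chosen with earlier results of these data known. Tried besides were DESeq2 1.42.0, limma 3.58.1 voom, other scalings, filters, covariates and subsets (19 settings) and each library left out in turn. One tested member of a list is not reported here. Correlations and shares used permutation tests with 100000 resamples.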

Additional observations from a re-analysis of the deposited data

Results flagged for a closer look

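For 24 genes the HP minus LP difference itself differed between the 2 runs of the experiment (parity by replicate term of the edgeR quasi-likelihood fit over 28 libraries). Given here are the 3 of them with a symbol and the smallest p. In ARHGAP15 the difference in R2 minus that in R1 was 0.54 on the log2 scale (SE 0.09, adjusted p = 0.0185), from −0.14 in R1 and 0.38 in R2. In CMSS1 it was 0.65 (SE 0.11, adjusted p = 0.0185), with means of 8.63 CPM in HP against 9.90 CPM in LP in R1 and 9.42 against 6.92 CPM in R2. In HSPE1, which codes for the mitochondrial chaperonin HSP10, it was 0.55 (SE 0.10, adjusted p = 0.0212), with means of 68.3 against 76.2 CPM in R1 and 72.8 against 55.5 CPM in R2. None of the 3 passed in the fit to both runs together. Replicate and anything else that differed between the runs cannot be told apart.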

How the results depend on the processing

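Of the 357 genes, 352 kept their direction among intermediate sows, and all that were measured kept it with rank added, within each run, within each housing, without the replicate block and with the erythroid covariate. The genes were chosen in these same 28 libraries, so a kept direction is not independent evidence. Over all genes tested in both runs, the direction was the same for 49.9%. Without the replicate block 180 genes were called (179 of the 357), with parity alone 222, with rank added 2, among intermediate sows 0, in R2 817, in conventional housing 5, in enriched housing 0, by DESeq2 691 (all 357 among them), 848 at a threshold of 0.1 and 575 with the erythroid share as a covariate. Chosen after the data were seen were the fit without the 4 libraries of most HBB (165) and R2 without HP library 13 (1515). Leaving out 1 library gave 156 to 809 genes (median 277). Outside 1.5 times of 357 were the fits without HP 8 (156), LP 15 (178), HP 11 (193), HP 9 (211), HP 3 (221), LP 13 (221), LP 3 (225), LP 1 (231), LP 12 (235) and HP 13 (809). Of the 42 named genes 24 passed in all 28 of these fits, 42 in DESeq2 and 38 in limma voom. Among intermediate sows SPRED1 was at −0.22 and CD247 at 0.045, the reverse of the full fit; the cause was not tested. For the parity by replicate term DESeq2 called 421 genes, and 361 passed at a threshold of 0.1.

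The groups are small, rank is close to nested in parity, and no sow's age is given. Genes near 1 CPM rest on the fewest counts and are the least precise.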

Other observations

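Several lists of genes with few or no passing members had medians of HP minus LP that lay on different sides of 0 in the 2 runs, or close to 0 in 1 of them, and these are given as values without a test. The scavenger receptor list had a median of 0.74 in R1 and −0.15 in R2, the monocyte list 0.45 in R1 and −0.05 in R2 and the dendritic cell list 0.53 in R1 and −0.05 in R2. The B cell list stood at −0.59 in R1 and 0.09 in R2, the interferon-stimulated list at 0.14 in R1 and −0.45 in R2, the mitochondrially encoded genes at −0.15 in R1 and 0.50 in R2 and the ribosomal protein genes at −0.07 in R1 and 0.30 in R2. The nuclear oxidative phosphorylation genes stood at 0.02 in R1 and 0.24 in R2. The gamma delta list was below 0 in both runs, at −0.49 in R1 and −0.27 in R2.

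Further genes that passed were picked out after their values were seen. S100A11, a calcium-binding protein, was at 99.1, 166 and 188 CPM in HP and 87.9, 127 and 161 CPM in LP (log2 fold change 0.42, SE 0.09, adjusted p = 0.0105), and its relatives S100A4, S100A6 and S100A10 differed by 0.43, 0.44 and 0.30. TXK, a Tec-family kinase of T cells, was at 31.8, 44.6 and 57.3 CPM and 49.7, 53.7 and 72.1 CPM (log2 fold change −0.36, SE 0.08, adjusted p = 0.0111), with 10 of 13 HP sows below all LP sows. CD38, an ecto-enzyme of activated lymphocytes, was at 86.9, 98.0 and 135 CPM and 103, 127 and 159 CPM (log2 fold change −0.34, SE 0.07, adjusted p = 0.0151). One HP library of R2 (number 9) held 595 CPM of the collagen gene COL1A1, against an HP median of 3.55 CPM and 0 to 57.2 CPM in LP. Without that library 211 genes were called.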
